A study of Hipposideros armiger with 2 samples.

Results

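The 35 genes examined act in fatty acid oxidation and ketone body metabolism, and they were measured in liver-labelled RNA-seq libraries of the great Himalayan leaf-nosed bat, Hipposideros armiger. A member was taken as every row of the deposited tables whose protein name, in capitals, equalled its symbol, and the values of all rows with that name were added. The names of 34 of the 35 members were found, on 108 of the 55378 assembled genes and among 12783 distinct names. No row carried the name PPARGC1A, the coactivator that drives mitochondrial gene programmes, and that member is not analysed further.

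The 2 libraries form 1 group. Both are labelled as liver of wild-type (WT) bats from the CW cave, in Chunwan of Guangdong Province, with heavy metal exposure as the treatment. The design text describes adult males caught in the wild, and the label of replicate 2 repeats that sex and age. The study asked how metal load bears on liver function. No sample of the comparison cave entered the work, so no effect of metals was measured. The values below are levels in these liver-labelled samples and the distance between the 2 libraries. With 1 library against 1 there is no replicate check and no test of a difference. The labels do not say whether the 2 libraries came from separate animals, although the design text describes several.

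Fatty acid oxidation shortens activated fatty acids by repeated cycles of dehydrogenation, hydration, a further dehydrogenation and thiolysis. Mitochondria, which take up long chains through the carnitine shuttle, oxidise most of the dietary chain lengths. Peroxisomes shorten very long and branched chains and the side chains of bile acid precursors. In the fasting liver the acetyl-CoA that results is turned into ketone bodies, which other tissues burn. The nuclear receptor PPARA switches on many of these genes in hepatocytes.

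The replicates held 18741210 and 18778331 expected counts. Marker levels went against the shared liver label in part in replicate 1, and more so in replicate 2. All 16 hepatocyte markers were found and none was at 0, but their sum in TPM, a level corrected for transcript length, was 14963 in replicate 1 and 806 in replicate 2. The plasma protein gene ALB alone was at 7990 and 176 TPM. The marker SLC10A1 went the other way, at 229 and 298 TPM, and held the largest part of the sum in replicate 2. By counts it was the 1 hepatocyte marker within 2-fold. The 10 lung epithelium markers, also with none at 0, summed to 12361 and 19677 TPM, led by the airway secretoglobin SCGB3A1 at 8069 and 12898 TPM. Heart muscle markers summed to 394 and 513 TPM and skeletal muscle markers to 407 and 359 TPM. In bulk tissue, fewer cells of a type and less RNA per cell cannot be told apart. A ratio between the libraries cannot be given without either of them, so each result below stands with the level in each library.

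The summed level of the 34 members was 1689 TPM in replicate 1 and 1088 in replicate 2 (1389 ± 425 TPM, mean ± SD, n = 2), which was 0.169% and 0.109% of all TPM. Their median level was 38.6 TPM in replicate 1 and 22.4 TPM in replicate 2, against 8.74 and 10.3 TPM over all names. By the mean of both libraries, 24 of the 34 (70.6%) reached 10 TPM, against 49.2% of all names. The members therefore ranked above a typical name in both libraries, with a smaller margin in replicate 2.

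**Figure D1:**
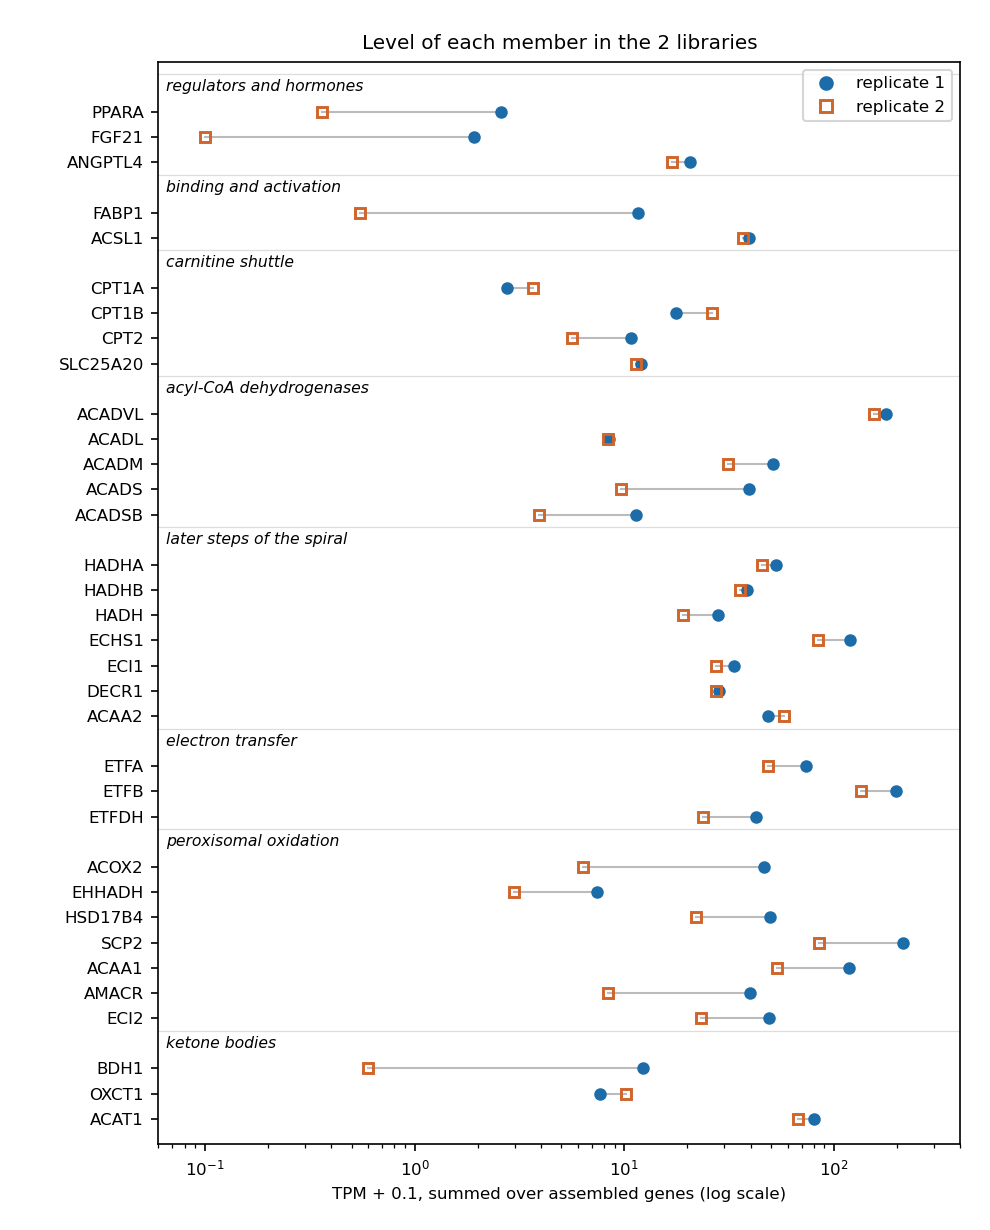
Level of each of the 34 members found, as TPM + 0.1 on a log axis, summed over the assembled genes of the name, with filled circles for replicate 1 and open squares for replicate 2. The widest gaps belong to FABP1, FGF21, BDH1, PPARA, ACOX2 and AMACR, whereas most mitochondrial enzymes lie close together; FGF21 is at 0 TPM in replicate 2.

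By level, ETFB (167 TPM by the mean of both libraries) and ACADVL (166 TPM) stood highest, followed by SCP2 (150 TPM), ECHS1 (101 TPM), ACAA1 (85.8 TPM) and ACAT1 (73.4 TPM). The order of neighbours among these 6 was not resolved: their SDs over the 2 libraries ran from 8.95 TPM for ACAT1 to 91.2 TPM for SCP2. FGF21 (0.91 TPM), PPARA (1.37 TPM) and CPT1A (3.10 TPM) stood lowest.

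Differences between the libraries were measured on counts, as the log2 ratio of replicate 2 over replicate 1 with TMM scaling and a pseudocount of 1 CPM. Of the 34 members, 33 had a mean of at least 1 CPM and were compared. In replicate 2, 12 of the 33 were lower by more than 2-fold and 0 were higher by more than 2-fold. Over all 11289 names compared, 5.17% were lower by more than 2-fold and 0.0266% higher. The median log2 ratio of the members was -0.61, against 0.0 for all names by construction, and 31 of 33 lay below 0. The 12 were PPARA, FABP1, ACADS, ETFA, ETFDH, ACOX2, EHHADH, SCP2, ACAA1, AMACR, ECI2 and BDH1. For 9 of them, all but ACADS, ETFA and ECI2, the 95% exact binomial interval of the count ratio lay wholly beyond 2-fold. Such intervals are computed from the 2 counts, so they hold counting error alone and say nothing of the spread between animals. PCR copies of a molecule could not be told apart, so the intervals may be too narrow even for counting error. ETFA left the 12 on summed TPM, and ECI2 left them when only the assembled gene with most counts was used. CPT2 (log2 ratio -1.08) and HADH (-1.16) passed 2-fold under that last setting.

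**Figure D2:**
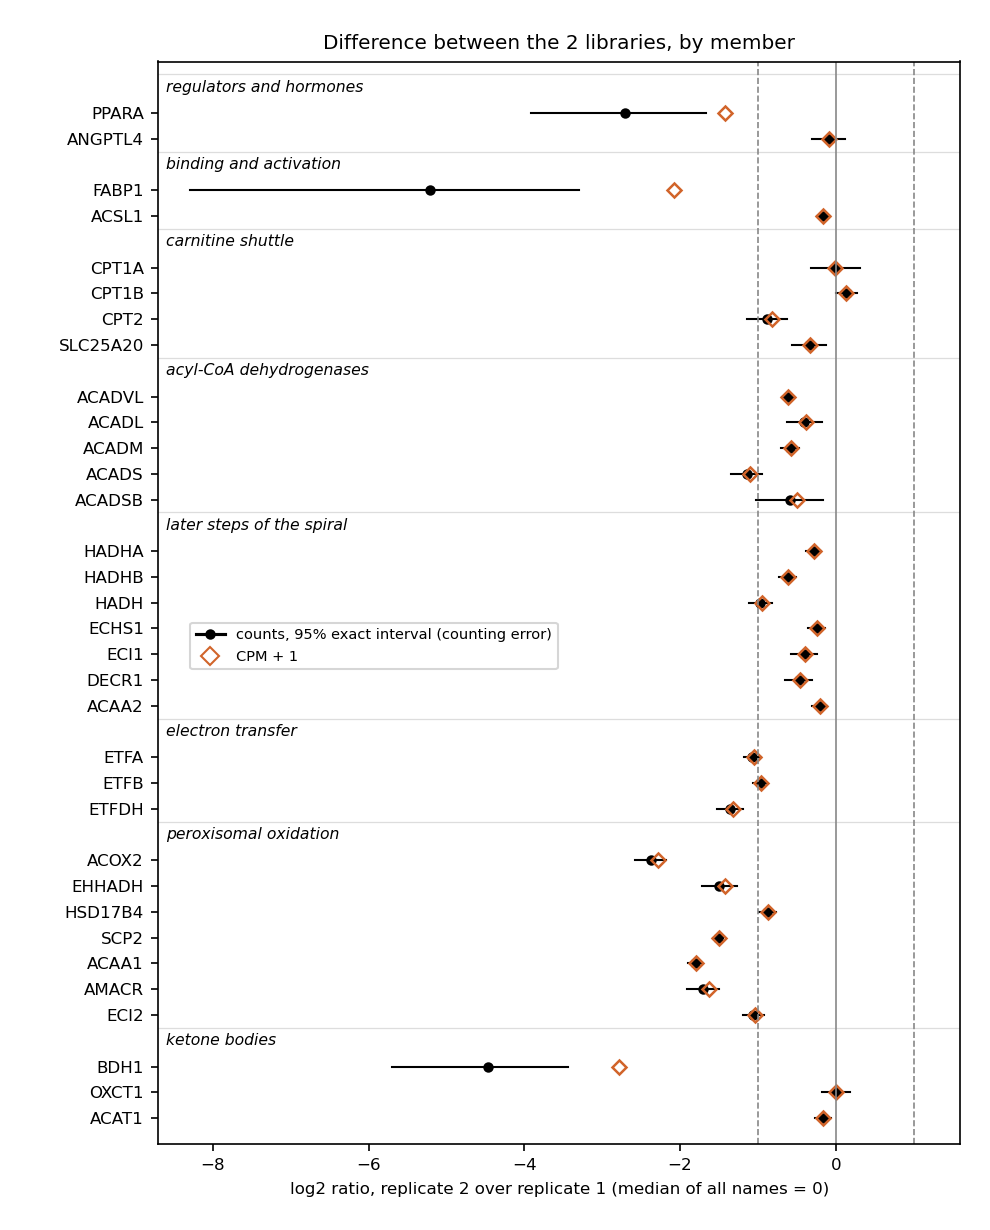
Log2 ratio of replicate 2 over replicate 1 for the 33 members compared, with the median of all names at 0 and dashed lines at 2-fold. Black points with bars are count ratios with their 95% exact intervals, and open diamonds are ratios of CPM + 1; the peroxisomal members lie near or beyond the lower line, and FABP1 and BDH1 lie far beyond it.

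The regulators and secreted factors were scarce, except for ANGPTL4. PPARA, the fatty acid sensing receptor that drives the pathway in hepatocytes, was at 2.48 TPM (49 counts) in replicate 1 and 0.26 TPM (9 counts) in replicate 2. Its count ratio was 6.52-fold lower in replicate 2 (95% interval 3.17 to 15.1), and 2.69-fold lower after the pseudocount, which understates changes of such low genes. FGF21, a hormone that the liver releases in fasting under PPARA, had 24 counts (1.82 TPM) in replicate 1 and 0 in replicate 2. With a detection floor of 3 counts put in place of the 0, FGF21 was 9.59-fold lower in replicate 2. That value takes the 24 counts as exact and is not a lower bound. The 95% exact interval of its count ratio reached up to a log2 ratio of -2.85, a smaller difference. FGF21 was the 1 found member left out of the comparison for its low mean. ANGPTL4, an inhibitor of lipoprotein lipase, had 340 and 382 counts, a log2 ratio of -0.09. Its summed TPM was 20.5 and 16.7, where 9.62 TPM of replicate 1 came from 9 counts on a 227-base assembled gene.

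Binding and activation of fatty acids were covered by FABP1 and ACSL1. FABP1, which carries fatty acids in the cytosol of hepatocytes and enterocytes, was at 11.5 TPM (62 counts) in replicate 1 and 0.45 TPM (2 counts) in replicate 2. This was 37.1-fold lower by counts, with an interval of 9.86 to 314 because only 2 counts remained. Among fatty acid-binding proteins of other tissues, the most abundant stood above it in both libraries: FABP4 of adipocytes, macrophages and endothelium was at 172 and 258 TPM, and FABP5 of epithelia at 83.8 and 134 TPM. FABP5 thus exceeded FABP1 by 7.30-fold in TPM in replicate 1 and by 297-fold in replicate 2, the latter over the 2 counts of FABP1. ACSL1, which joins long-chain fatty acids to coenzyme A, was by contrast at 39.1 and 36.8 TPM, with a log2 ratio of -0.16.

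The carnitine shuttle moves long chains into mitochondria, and its 4 members all stayed within 2-fold. Its entry enzyme exists as a liver isoform, CPT1A, and a muscle isoform, CPT1B. CPT1A was at 2.65 and 3.55 TPM, with 155 and 185 counts. CPT1B was at 17.5 and 26.0 TPM, with 736 and 971 counts. The muscle isoform was therefore the more abundant per length in both libraries, by 6.59-fold in replicate 1 and 7.32-fold in replicate 2. Each of the 2 names rested on 1 assembled gene. CPT1A had a log2 ratio of -0.01 between the libraries and CPT1B one of 0.14, and the count interval of each included equal levels. The part of the muscle markers given above in the CPT1B level was not tested. The carrier SLC25A20, which exchanges acylcarnitine for carnitine, was at 11.9 and 11.3 TPM. CPT2, the inner membrane enzyme that re-forms acyl-CoA, was lower in replicate 2, at 10.7 and 5.53 TPM, with a log2 ratio of -0.82.

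Acyl-CoA dehydrogenases catalyse the opening step of each cycle, each for its own chain length. ACADVL, for very long chains, was at 177 and 155 TPM and exceeded ACADL, for long chains, 21.3-fold and 18.7-fold. ACADL itself was at 8.34 and 8.28 TPM. ACADM, for medium chains, was at 50.9 and 31.2 TPM, with a log2 ratio of -0.58. ACADS, for short chains, was the 1 dehydrogenase lower by more than 2-fold, with 594 and 322 counts and a log2 ratio of -1.10. Its TPM, 39.1 and 9.52, lay further apart than its counts. Its 3 short assembled genes had few counts but a large part of the TPM of replicate 1, and the main one, at 21.6 and 8.59 TPM, also differed more in TPM than in counts. ACADSB, for branched short chains, had 107 and 85 counts and a log2 ratio of -0.50.

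The later steps of the mitochondrial cycle were the most even large group: all 7 members were lower in replicate 2 by count ratio and all 7 stayed within 2-fold, with a median log2 ratio of -0.39. HADHA and HADHB, the subunits of the trifunctional protein for long chains, were at 52.5 and 45.2 TPM and at 38.2 and 35.6 TPM. The alpha subunit was thus 1.37-fold and 1.27-fold the beta subunit in TPM. ECHS1, the hydratase for short chains, led the group at 119 and 83.7 TPM, although its counts, 1349 and 1366, were nearly the same and gave a log2 ratio of -0.24 after scaling. HADH, the dehydrogenase that follows it, had the lowest ratio, -0.95, with 1045 and 640 counts. ACAA2, the closing thiolase, was at 48.1 and 57.3 TPM, higher per length in replicate 2, although its count ratio on the log2 scale was -0.20. ECI1 and DECR1, which prepare unsaturated chains for the cycle, had log2 ratios of -0.39 and -0.46.

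Electrons from the acyl-CoA dehydrogenases pass to the flavoprotein ETF and from it, through ETFDH, to ubiquinone. All 3 genes of this relay were lower in replicate 2 and 2 of them by more than 2-fold. ETFA, the alpha subunit, had 2005 and 1145 counts, a log2 ratio of -1.06. ETFB, the beta subunit, had 2828 and 1730 counts and a ratio of -0.96, just within 2-fold. ETFDH had 909 and 425 counts and a ratio of -1.32. Relative to each other the subunits kept nearly the same proportion, with ETFB 2.69-fold and 2.79-fold ETFA in TPM. Nuclear genes of oxidative phosphorylation, the chain that ETFDH feeds, had a median log2 ratio of -0.76, and 4 of 23, against 5.17% of all names, were lower by more than 2-fold: SDHA (-1.04) and SDHB (-1.50) of succinate dehydrogenase, UQCRC1 (-1.29) of the cytochrome bc1 complex and ATP5C1 (-1.14) of ATP synthase.

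**Figure D3:**
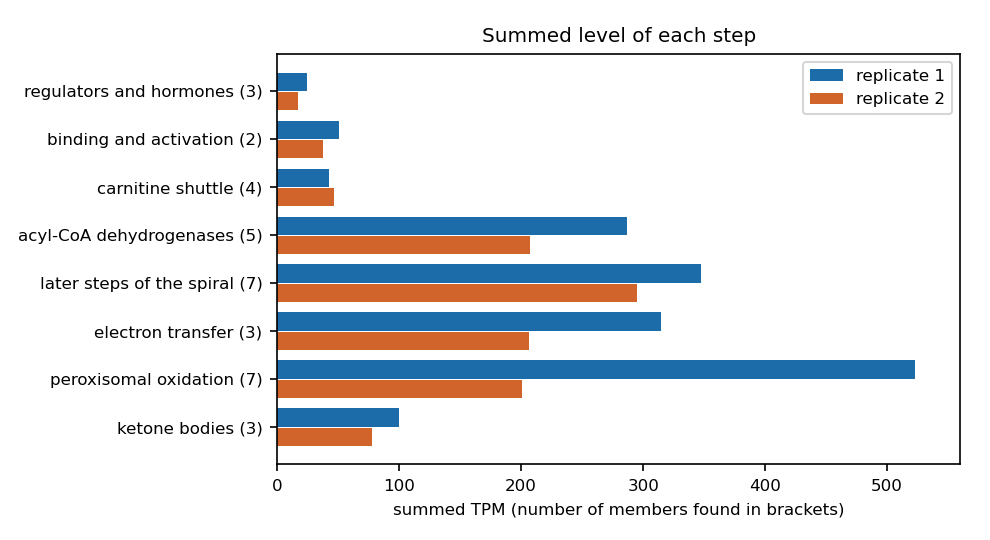
Summed TPM of the members of each step in replicate 1 (blue) and replicate 2 (orange), on a linear axis from 0, with the number of members found in brackets. Peroxisomal oxidation has the longest bar in replicate 1, at 523 TPM, and falls behind the later mitochondrial steps, the acyl-CoA dehydrogenases and electron transfer in replicate 2, at 201 TPM.

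Peroxisomal oxidation showed the largest gap of any step in summed TPM and, in the main comparison, in its median log2 ratio. The median of the 2 binding and activation members, FABP1 and ACSL1, was lower with a pseudocount of 0.1 CPM, at -2.20 against -1.51, and on summed TPM, at -1.93 against -1.47. The sum over its 7 members was 523 TPM in replicate 1 and 201 in replicate 2, or 31.0% and 18.5% of the summed TPM of all members, while the 19 mitochondrial members took 58.7% and 69.4%. In replicate 2, 6 of the 7 were lower by more than 2-fold, with a median log2 ratio of -1.51, against 3 of 19 and a median of -0.50 for the mitochondrial members and 5.17% of all names. The peroxisomal ratios ran from -2.29 to -0.87 and the mitochondrial ones from -1.32 to 0.14. No test of this difference was made. The summed hepatocyte markers moved in the same direction between the libraries, and their part in the peroxisomal ratios was not tested.

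ACOX2, the oxidase for branched chains and bile acid precursors, had the lowest log2 ratio of the 7, -2.29, at 46.2 and 6.27 TPM, with 1109 and 256 counts. SCP2, a sterol carrier and thiolase for branched chains, was the most abundant, at 214 and 85.1 TPM, with 6444 and 2707 counts and a ratio of -1.51. ACAA1, the thiolase for straight chains, was at 118 and 53.5 TPM, with a ratio of -1.80. ACAA1 stood 2.45-fold above its mitochondrial counterpart ACAA2 in TPM in replicate 1 and at 0.934 times ACAA2 in replicate 2, so the order of these thiolases changed between the libraries. AMACR, which converts branched chains to the form that can be oxidised and also occurs in mitochondria, had 693 and 255 counts and a ratio of -1.63.

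Hydration and the dehydrogenation after it are joined in 1 protein in peroxisomes. EHHADH, the bifunctional enzyme for straight and dicarboxylic chains, was at 7.31 and 2.87 TPM with a log2 ratio of -1.42. HSD17B4, the bifunctional enzyme for branched chains and bile acid precursors, was at 49.2 and 21.8 TPM, 6.73-fold and 7.58-fold above EHHADH. With a ratio of -0.87, HSD17B4 was the 1 peroxisomal member within 2-fold. ECI2, an isomerase for unsaturated chains found in peroxisomes and mitochondria, had 1174 and 676 counts and a ratio of -1.04, at the edge of the 2-fold line.

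Names outside the member list that the deposited GO terms place in peroxisomes but not in mitochondria lay closer to the background: 8.2% of 61 were lower by more than 2-fold, with a median log2 ratio of -0.02. Among the 47 names placed in both, 25.5% were lower by more than 2-fold, with a median of -0.31, and among the 1208 placed in mitochondria only, 9.6%, with a median of -0.13. These groups were formed after the members' values had been seen, and the difference from the members was not tested.

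Ketone body genes split by role. BDH1, which interconverts acetoacetate and beta-hydroxybutyrate, was at 12.2 TPM (147 counts) in replicate 1 and 0.50 TPM (8 counts) in replicate 2. Its count ratio was 22.0-fold lower (interval 10.9 to 52.0), and its log2 ratio after the pseudocount, -2.79, was the lowest of all members. OXCT1, the enzyme with which tissues other than liver use ketone bodies and which hepatocytes largely lack, was at 7.55 and 10.03 TPM, with 470 and 565 counts and a log2 ratio of 0.004. In TPM, OXCT1 was thus 0.619 times BDH1 in replicate 1 and 20.1 times BDH1 in replicate 2. ACAT1, a mitochondrial thiolase of both ketone body synthesis and use, was at 79.8 and 67.1 TPM, with a ratio of -0.16. Of the ACAT1 counts, 98.4% lay on 1 assembled gene with its best match in mouse, and the ratio was -1.10 without mouse matches. The summed hepatocyte markers given above moved in the same direction as BDH1, and their part in its ratio was not tested.

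Of a list of 93 other genes of fatty acid uptake, activation, oxidation and its control, 85 were found and 82 compared. In replicate 2, 15 (18.3%) were lower by more than 2-fold and 0 higher, against 5.17% lower among all names, and the median log2 ratio was -0.30. PHYH, which starts the oxidation of phytanic acid in peroxisomes, was the most abundant, at 449 and 155 TPM with a ratio of -2.17. The 7 that followed in abundance were not lower by more than 2-fold. They were FABP4 (log2 ratio 0.16), the ligase ACSL5 (0.12), the lipase PNPLA2 (0.07), the lipid droplet protein PLIN2 (-0.30), FABP5 (0.22), the peroxisomal lyase HACL1 (-0.34) and the isomerase ECH1 (-0.80). Of these 7, 4 act in fatty acid storage, release or binding and had log2 ratios between -0.30 and 0.22.

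By the deposited GO terms, 24 members carried a term for fatty acid beta-oxidation. Among the 36 other names with such a term that could be compared, 6 (16.7%) were lower by more than 2-fold, against 5.17% of all names, with a median log2 ratio of -0.24.

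**Figure D4:**
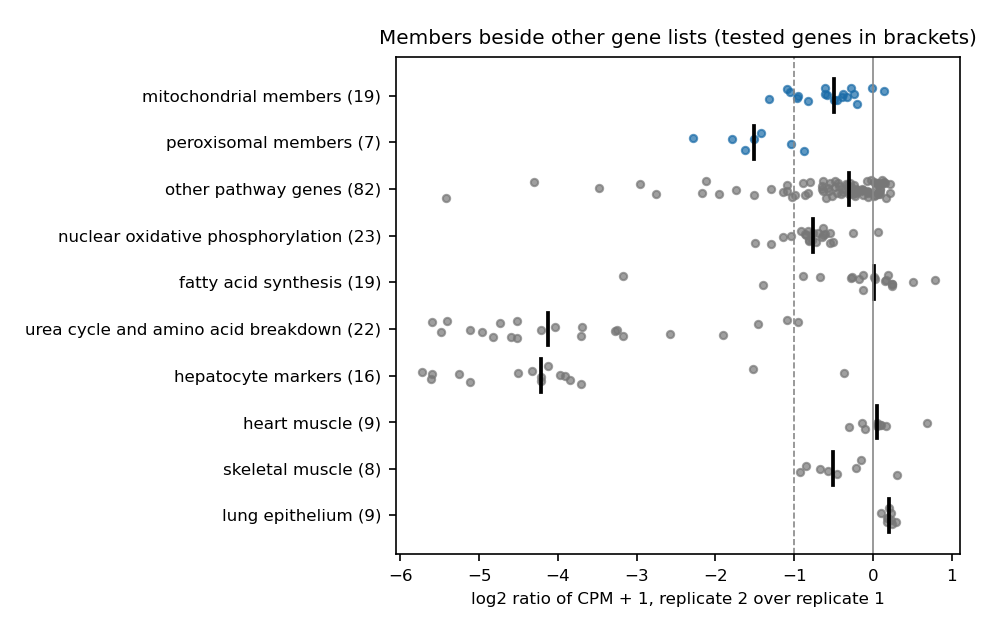
Log2 ratio of CPM + 1, replicate 2 over replicate 1, for each gene of the mitochondrial and peroxisomal members (blue) and of other lists (grey), with a black bar at each median and the number compared in brackets. Both sets of members lie between the fatty acid synthesis and lung epithelium genes, whose medians are near 0, and the hepatocyte and urea cycle genes, whose medians are below -4. The medians of the skeletal muscle and nuclear oxidative phosphorylation genes, -0.51 and -0.76, lie between them too.

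Beside other pathways, the members' median of -0.61 was far from that of the genes found mainly in hepatocytes. The 22 genes of the urea cycle and amino acid breakdown had a median log2 ratio of -4.13, with 21 lower by more than 2-fold, and the 16 hepatocyte markers had a median of -4.22, with 15 lower. Fatty acid synthesis genes had a median of 0.01, and 2 of 19 were lower by more than 2-fold, FADS1 (-3.17) and MLXIPL (-1.39). Lung epithelium markers had a median of 0.21 and heart muscle markers one of 0.06. Nearer to the members were the skeletal muscle markers, with a median of -0.51 and 0 of 8 lower by more than 2-fold. The nuclear oxidative phosphorylation genes given above, at -0.76, were near as well. Among the genes of these lists that could be compared, 0 were higher by more than 2-fold. SCGB1A1, a lung epithelium marker below the filter and named after its values were seen, had 1 count in replicate 1 and 24 in replicate 2. BDH1, at -2.79, ACOX2, at -2.29, and FABP1, at -2.07, were among the members nearest to the hepatocyte markers. In replicate 2 they had 8, 256 and 2 counts. Without a pseudocount, FABP1 was the lowest of these, 37.1-fold against 22.0-fold for BDH1 and 5.19-fold for ACOX2. OXCT1, CPT1A, ANGPTL4 and CPT1B, the 4 members whose count interval included equal levels, lay with the lists near 0.

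A member's value could join several assembled genes. Only 5 members rested on 1 assembled gene, 29 on 2 or more, and HADHA on 9. Among the 44 member assembled genes with at least 100 counts over both libraries, 30 (68.2%) were within 2-fold, 10 were lower in replicate 2 by 2-fold to 16-fold and 4 by more than 16-fold. Over all 15618 assembled genes at that depth, 94.4% were within 2-fold and 2.73% lower by more than 16-fold.

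The 4 were assembled genes of ACOX2, BDH1, DECR1 and ECI2. For DECR1 and ECI2, other assembled genes of the same name stayed within 2-fold. These were 2 of the 12 members with 2 or more assembled genes at that depth. Over all names, 68 of 729 were split in the same way. DECR1, the dienoyl-CoA reductase, had 1 assembled gene of 1115 bases at 407 and 439 counts and another of 1088 bases at 115 and 3 counts. ECI2 had 1 of 2310 bases at 1072 and 671 counts and another of 777 bases at 99 and 3 counts. ACOX2 had none within 2-fold: its main assembled gene had 973 and 254 counts, and a further one had 112 and 1.

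Length and best protein match differed along with this. The 42 member assembled genes under 500 bases included 11 (26.2%) with counts in replicate 1 alone and 0 in replicate 2 alone, against 14.5% and 5.4% of all assembled genes of that length. Among the 45 of at least 1000 bases, 0 were confined to 1 library. The short ones held 1.27% and 0.824% of member counts but 14.9% and 8.76% of member TPM.

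Best matches to mouse proteins were found for 24 of the 108 assembled genes, in 21 members, and these held 17.8% and 23.7% of member counts. At 100 counts or more, 12 of the 13 with a mouse match were within 2-fold, all but the main one of ACADS, with a median log2 ratio of -0.16, against 18 of 31 with matches in other species and a median of -0.81. Both kinds were present at that depth in 10 members. In ETFDH the mouse-matched assembled gene had 122 and 150 counts while the main one, matched to pig, had 741 and 255. In HADH the mouse-matched one had 127 and 179 counts and the main one, also matched to pig, 838 and 440. In HADHA both kinds were level, with 278 and 276 counts against 1533 and 1541. The species of origin of a transcript cannot be read from its best match, and whether the copies are separate genes was not tested.

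**Figure D5:**
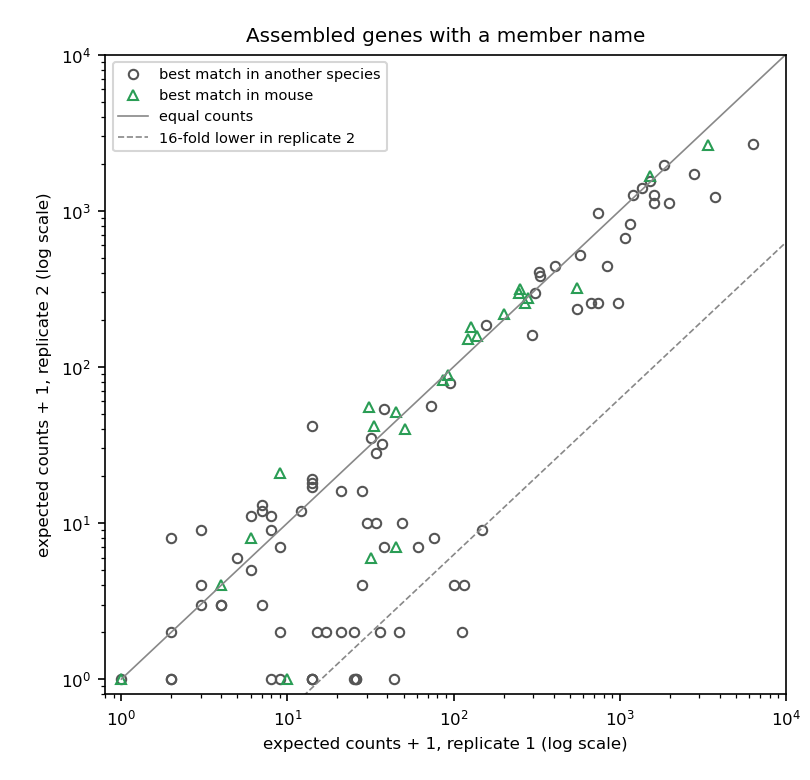
Expected counts + 1 of the 108 assembled genes with a member name, replicate 1 against replicate 2, on log axes, with green triangles for best matches in mouse and grey circles for other species. Most of the deeply counted assembled genes follow the line of equal counts, and a separate set of grey circles lies near or below the dashed line of 16-fold lower counts in replicate 2.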

How the data were processed

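Poly(A)-selected RNA was sequenced for both libraries. Per the submitters' processing notes, cutadapt 1.9 served both libraries, and the mm10 mouse build is listed for replicate 1; the assembler, quantifier and its use of that build are not given in the sources used here. Features are Trinity cluster names in the deposited tables. The deposited expected counts, so marked per the file headers, were rounded per assembled gene. The authors' other value column was read as TPM, as it sums to 996837 and 996239 in the deposited tables.

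Counts were summed per protein name (30192 assembled genes, with 8.70% and 9.69% of counts, carry none). TMM factors over all names were 0.915 and 1.09, from edgeR 4.0.16 in R 4.3.3. Log2 ratios of CPM + 1 at a mean of at least 1 CPM were centred on their median, 0.003. No test was run, since the design has 1 group, and intervals are exact binomial. Tested on simulated counts for replicate 2 over replicate 1 (11280 names), the 2-fold line caught 98.0% of names at 4-fold lower. It caught 100% at 4-fold higher and 16-fold either way, and 0.05% of unchanged names. The spread of the simulated counts was assumed and not estimated from these libraries, so these shares are not error rates of the real comparison.

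All 35 members are named, with the 8 most abundant other pathway genes and up to 3 markers per list. Marker sums are in TPM. Further marker lists gave adipocyte genes at 119 and 140 TPM, erythroid genes at 29881 and 36304 TPM, and kidney tubule genes, of which 2 of 5 were found, at 38.0 and 54.9 TPM. The members and lists were chosen with earlier results of these data known; splits by length, best match and GO term, and the ratios between members, were added after seeing the data. All 35 members are symbols in the RefSeq gene table (ASM189008v1). No sequences are printed. Computations used Python 3.11.15, numpy 2.4.6, pandas 2.3.3, scipy 1.17.1, matplotlib 3.10.9 and DESeq2 1.42.0 (size factors 0.914 and 1.09, an alternative).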

Additional observations from a re-analysis of the deposited data

How the results depend on the processing

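The count of 12 members lower by more than 2-fold stayed between 9 and 15 under all 10 alternatives, and the count higher stayed at 0. The 12 and the 15 were of 33 members compared. The 9 were of 28, at a mean of at least 10 CPM, a filter that removed PPARA, FABP1 and BDH1. Among those 28, 0 calls were lost. The median log2 ratio of the members, -0.61, kept its sign throughout and went to -0.71 without a filter on low values, -0.89 on summed TPM, -0.74 with the assembled gene of most counts alone and -0.85 without assembled genes matched to mouse proteins, an alternative chosen after seeing the data like that without assembled genes under 500 bases; the cause was not tested, except that the first adds FGF21. On summed TPM ETFA left the 12 and CPT2, ACADM, ACADSB and HSD17B4 joined; with the assembled gene of most counts alone ECI2 left and CPT2 and HADH joined; without mouse matches CPT2, HADH and ACAT1 joined. Under TPM rescaled without the 10 highest assembled genes, a smaller total by construction, the sums went to 1885 TPM for all members, 1184 for mitochondrial and 120 for ketone body members; with the main assembled gene alone they were 701 for mitochondrial and 72.1 for ketone body members. Without each replicate in turn, the sum was 1088 to 1689 TPM, with 22 to 28 members at 10 TPM. The 2 names split between the libraries stayed DECR1 and ECI2 under both of their alternatives. No paired analysis was possible because both libraries belong to 1 group. Depth limits FGF21, FABP1 and PPARA, with under 10 counts in replicate 2, and BDH1 with 8.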
